A study of Mus musculus with 96 samples.

Results

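The 10 genes of the axonal cytoskeleton described here were followed through a table of single-neuron transcripts from the lateral superior olive (LSO), an integration center of the auditory brainstem of mice. The 10 genes were chosen by name, as the neurofilament subunits and their relatives (Nefl, Nefm, Nefh, Ina and Prph) and as microtubule genes (Map2, Mapt, Map1b, Tubb3 and Stmn2), and all 10 were found by their Ensembl identifier among the 38887 genes listed. The libraries were made by patch-seq: the neuron was recorded with a patch pipette in an acute slice of a C57BL/6 J mouse of either sex around hearing onset, its cytoplasm was aspirated, and the polyadenylated RNA was amplified with a modified Smart-seq2 protocol. The labels sort 86 neurons by firing pattern into 44 Onset and 12 Sustained principal neurons (pLSOs) and 30 lateral olivocochlear neurons (LOCs), which fire with a delay, and add 10 negative controls, for which a pipette touched the slice without a neuron being harvested. No group received a treatment or carried an altered allele, and the labels name no animal, so a group stands for 1 sample and its neurons were not treated as replicates; no test between groups was made.

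Neurofilaments are the intermediate filaments of mature axons. Nefl forms their core, Nefm and Nefh add long side arms that set the spacing between filaments and are linked to axon caliber, and Ina (internexin neuronal intermediate filament protein alpha) and Prph (peripherin) can join the same filaments. Prph is best known from peripheral neurons and from central neurons whose axons leave the brain. Microtubules are the second system: Tubb3 is a neuronal tubulin, Map2 binds microtubules mainly in dendrites, Mapt (tau) mainly in axons, Map1b supports growing axons, and Stmn2 binds tubulin dimers and is needed for axon maintenance. pLSOs send ascending axons within the auditory brainstem, whereas LOCs send thin axons out to the cochlea.

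Of the 96 libraries, 8 were left out, namely cell_36, cell_39, cell_40, cell_54, cell_78, cell_85, NC5 and NC6, because an earlier comparison, not repeated here, had found that their labels or names disagreed with the tables of the study. The groups thus held 41 Onset and 11 Sustained neurons (together 52 pLSOs), 28 LOCs and 8 negative controls, and this choice rested in part on the study's own clustering of transcripts. All 6 pLSO markers (such as Spp1 and Slc17a6) were higher in pLSOs and all 6 LOC markers (such as Calca and Ucn) were higher in LOCs by at least 1 on the log2 scale. The study lists these markers as differing between its classes of the same neurons. Their direction therefore describes the groups and does not check the labels. Of 6 general neuron markers 3 were higher in pLSOs and none lower, of 7 tested astrocyte markers 1 was lower, of 8 microglia markers 1 was higher, and the 1 endothelial marker tested was neither. The values are TPM in whole numbers, and the length by which a read was divided followed the row of the table and not the gene. For example, the values of Nefl were whole multiples of a step that fits a length of 30 bases, where the exons of the gene cover 3380 bases. TPM of different genes were therefore not compared as deposited; levels between genes are given only per own exon length. The same steps gave an estimate of reads on genes, with a median of 882076 in pLSOs, 723231 in LOCs and 34904 in negative controls. A gene was counted as detected at 1 TPM or more, differences are of mean log2(TPM + 1), and a difference of 1 or more was taken as higher or lower.

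Nefm was the gene of the 10 in which pLSOs exceeded LOCs most often. Its transcripts were detected in 52 of 52 pLSOs and in 28 of 28 LOCs, at 1 to 4120 TPM with a median of 961 in pLSOs and at 5 to 2035 TPM with a median of 226 in LOCs. At 1000 TPM or more stood 26 pLSOs and 1 LOC, although the ranges overlapped. The mean was 1062 ± 822 TPM (SD over 52 neurons) in pLSOs and 363 ± 409 TPM (28 neurons) in LOCs, a ratio of 2.93. The difference was 1.51, and in 79.7% of all pairs of a pLSO and a LOC the pLSO was higher. On this scale 2 of the 10 genes were higher in pLSOs, where 6.99% of 10319 genes were, and 2 were lower, where 4.68% were. In either direction this makes 4 of 10 genes (40%) beside 11.7% of all genes tested. By the log2 ratio of mean TPM 4 of 10 also passed, but beside 50.1% of all genes with a ratio. The excess over all genes thus depends on the measure.

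Nefh, the heavy side-arm subunit, showed the largest difference in favour of pLSOs by mean log2, whereas by the ratio of mean TPM (2.39) it stood behind Nefm. It was detected in 48 of 52 pLSOs (92.3%, exact 95% interval 81.5 to 97.9) and in 25 of 28 LOCs (89.3%, 71.8 to 97.7); these intervals cover counting error only. The intervals of the shares overlapped, and the classes differed in level. pLSOs ranged from 0 to 3239 TPM with a median of 347, and LOCs from 0 to 1443 TPM with a median of 56.5. The means were 551 ± 613 and 231 ± 361 TPM (SD), the difference was 1.96, and the pLSO was higher in 69.5% of pairs.

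Nefl, the core subunit, differed less. Values ran from 0 to 3071 TPM in pLSOs (median 502) and from 2 to 1832 TPM in LOCs (median 225), so the groups overlapped up to 1832 TPM. The difference was 0.51, the ratio of means 1.34, and the pLSO was higher in 57.5% of pairs. The side-arm subunits Nefm and Nefh were thus past the threshold while Nefl was not. Mean log2(TPM + 1) of Nefm was 9.61 in Onset neurons, 7.95 in Sustained neurons and 7.74 in LOCs. For Nefh the same means were 7.94, 6.35 and 5.64. By this measure Sustained neurons stood above LOCs by less than the threshold for both genes. The differences past the threshold thus rested on Onset neurons. Medians in Sustained neurons and LOCs were 608 and 226 TPM for Nefm, and 136 and 56.5 TPM for Nefh. Nefl (chr14:68083863-68089095, + strand, GRCm38) and Nefm (chr14:68082590-68124846, − strand) are neighbours, and a long transcript of Nefm shares 1108 exon bases with Nefl on the opposite strand. Whether strand was used in counting is not given in the sources used here, so reads from that stretch cannot be told apart.

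**Figure D1:**
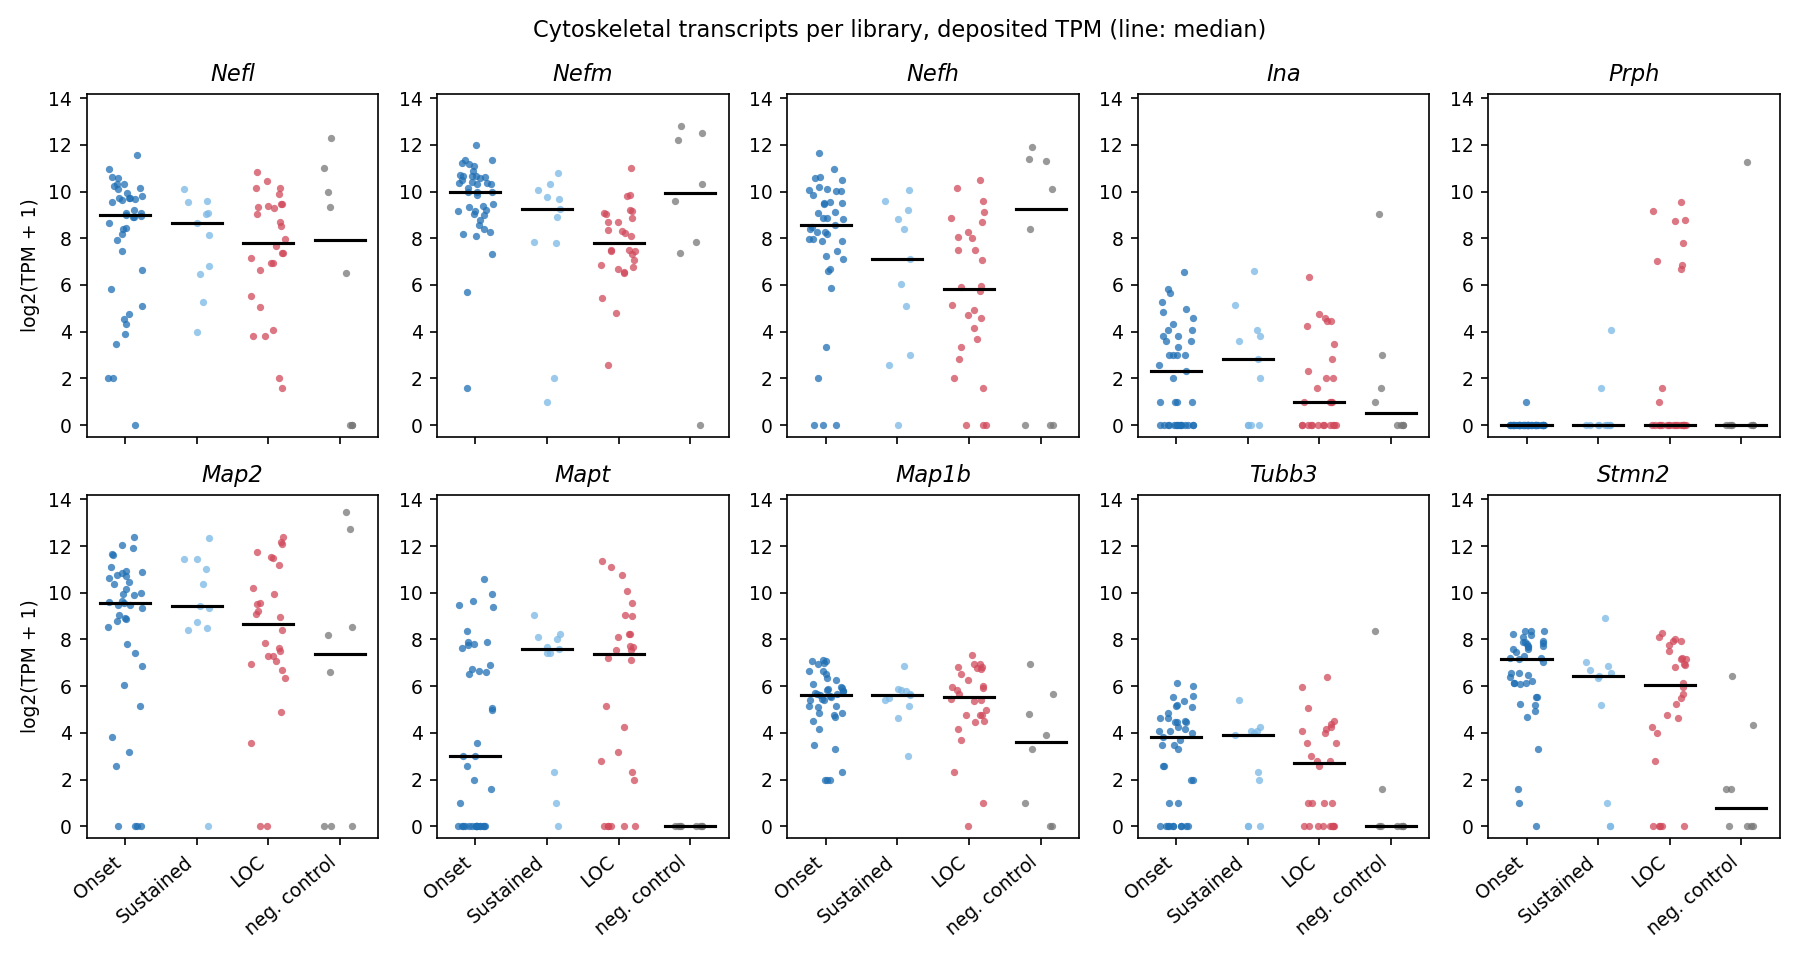
Each panel plots log2(TPM + 1), as deposited, of 1 gene for 41 Onset neurons, 11 Sustained neurons, 28 LOCs and 8 negative controls; each point is a library and the line is the median. Nefm and Nefh stand higher in pLSOs than in LOCs with overlap, 8 LOCs stand at 100 TPM or more of Prph where no pLSO does, and Mapt is at 0 in all 8 negative controls.

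The other intermediate filaments behaved differently from the triplet. Ina was sparse in both classes, with 33 of 52 pLSOs (63.5%, 49.0 to 76.4) and 16 of 28 LOCs (57.1%, 37.2 to 75.5) above the detection limit. Its highest value was 97 TPM in a pLSO and 79 TPM in a LOC, with medians of 4.5 and 1 TPM. The difference of 0.61 stayed under the threshold. Of the exons of Ina, 456 bases are shared with Nt5c2 on the opposite strand.

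Prph had the largest difference of the 10 at a pseudocount of 1 (with a pseudocount of 10 it was −1.36, less in size than that of Nefh, 1.65, and Nefm, 1.53), and it was the only one of the filament genes that was higher in LOCs. It was detected in 10 of 28 LOCs (35.7%, 18.6 to 55.9) and in 3 of 52 pLSOs (5.77%, 1.21 to 15.95). In 8 LOCs the values were 102, 116, 131, 219, 432, 438, 574 and 757 TPM, and the other LOCs with a transcript had 1 and 2 TPM. The 3 pLSOs had 1, 2 and 16 TPM, the latter 2 in Sustained neurons. LOCs thus fell apart into libraries of 100 TPM or more and libraries at or near 0, with none in between, and no pLSO reached the former. Over all LOCs the mean was 99.0 ± 201 TPM, over pLSOs 0.365 ± 2.23 TPM, and the difference was −2.27. The 8 high values stood for an estimated 59.1 to 720 reads each, so they did not rest on single reads. Of the left-out libraries, cell_85, labelled as a LOC, held 173 TPM (an estimated 11.0 reads) and the negative control NC6 held 124 TPM.

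The start of Prph is shown because this gene reached 100 TPM in LOCs alone among the neurons kept. The window holds 250 bases before and 50 after the annotated start (chr15:99054924-99055223, + strand, RefSeq on GRCm38.p6), and the capitals mark the only TATAAA, the letters of a TATA box, on either strand:

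Prph: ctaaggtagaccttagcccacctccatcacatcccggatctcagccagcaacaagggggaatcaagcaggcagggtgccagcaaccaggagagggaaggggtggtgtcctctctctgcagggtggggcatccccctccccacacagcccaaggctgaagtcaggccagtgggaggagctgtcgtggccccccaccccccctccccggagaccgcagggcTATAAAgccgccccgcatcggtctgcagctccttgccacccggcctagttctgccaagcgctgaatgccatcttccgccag

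The motif begins 31 bases before the start. Of 32851 mouse promoter windows of the same length, 4473 (13.6%) hold TATAAA on either strand. Windows were given for 5 of the 10 genes, and besides Prph only that of Map1b holds the motif, 99 bases before its start; those of Ina, Map2 and Tubb3 do not. These are matches of letters and were not set against any measurement of binding.

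Among the microtubule genes, Mapt was lower in pLSOs and the others stayed under the threshold. Mapt was detected in 35 of 52 pLSOs (67.3%, 52.9 to 79.7) and in 22 of 28 LOCs (78.6%, 59.0 to 91.7). pLSOs ranged from 0 to 1560 TPM with a median of 21, and LOCs from 0 to 2663 TPM with a median of 168. The means were 171 ± 298 and 412 ± 694 TPM (SD), the difference was −1.42, and the pLSO was higher in 38.98% of pairs. On values per own length the difference was −0.96, just under the threshold. Mean log2(TPM + 1) of Mapt was 3.82 in Onset neurons, 6.07 in Sustained neurons and 5.72 in LOCs. The lower value was thus that of Onset neurons, and Sustained neurons did not stand below LOCs.

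Mapt is also known from oligodendrocytes, the myelin-forming glia, whose markers moved in the same direction. Among the oligodendrocyte markers, Mbp was lower in pLSOs (a difference of −1.02), and the summed level of the 8 listed markers had a median of 288 TPM (0 to 12835) in pLSOs and 1115 TPM (1 to 25788) in LOCs. As these sums mix genes of different divisors, they are also given in estimated reads per library scaled as RPM, with medians of 1692 and 2565. Olig2 was at 0 in every pLSO, and none of the 8 was at 0 in every LOC. Their part in the Mapt value was not tested. In the negative controls the same sum had a median of 6831 TPM (389 to 42992), or 25890 RPM, and Mapt was at 0 in all 8. A read of Mapt was worth a median of 89.8 TPM in controls, above its median of 62 TPM in neurons, so such a level was not detectable in most controls.

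Map2 and Map1b, a dendritic and a growth-related microtubule-associated protein, did not separate the classes. Map2 was detected in 47 of 52 pLSOs and 26 of 28 LOCs, with medians of 733 and 416 TPM and highest values of 5287 and 5423 TPM. Its difference was 0.25 (124 of its exon bases are shared with an antisense gene, Gm10558), with the pLSO higher in 55.4% of pairs. Map1b was detected in 52 of 52 pLSOs and 27 of 28 LOCs at medians of 48 and 46 TPM, and its difference of 0.10 was the smallest of the 10.

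Tubb3 and Stmn2 leaned toward pLSOs. Tubb3 was detected in 39 of 52 pLSOs (median 13.5 TPM, highest 70) and in 19 of 28 LOCs (median 5.5 TPM, highest 83), and its difference was 0.67. Stmn2 was detected in 49 of 52 pLSOs (median 98 TPM, highest 490) and in 23 of 28 LOCs (median 65.5 TPM, highest 312), and its difference was 0.90. Both passed the threshold on values rescaled to own length, with differences of 1.27 and 1.19. Tubulin genes resemble each other in their coding sequence, so a read may have been placed on a relative. Over the 10 genes the median difference was 0.56, beside 0.07 over all genes tested. The 6 general neuron markers had a larger median difference of 1.03, so a lean toward pLSOs was not particular to the 10 genes.

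**Figure D2:**
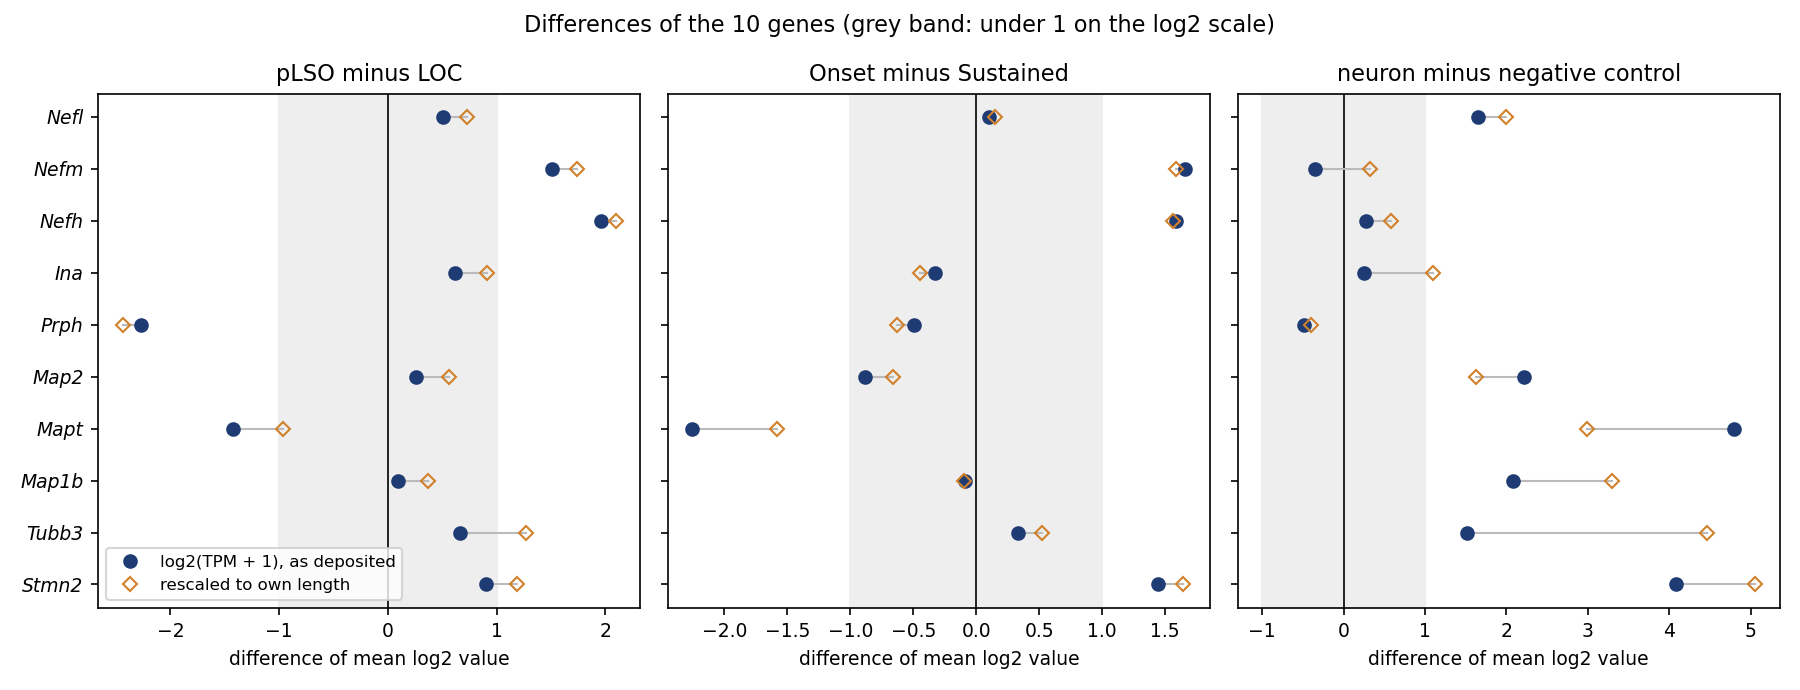
Differences of mean log2 values for the 10 genes in 3 comparisons, filled circles for TPM as deposited with a pseudocount of 1 and open diamonds for values per own exon length; the grey band marks differences under 1. Between pLSOs and LOCs, Nefm and Nefh lie right of the band and Prph left of it on both scales, while Mapt (−1.42 and −0.96), Tubb3 (0.67 and 1.27) and Stmn2 (0.90 and 1.19) change sides of the threshold.

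Once rescaled to own length, Tubb3 was the most abundant of the 10 transcripts. Its mean over 80 neurons was 845 ± 1036 TPM per own length (SD over neurons), followed by Nefl with 388 ± 401, Nefm with 357 ± 368, Map1b with 282 ± 227, Stmn2 with 278 ± 260 and Nefh with 202 ± 259. Ina with 102 ± 185, Prph with 53.9 ± 194, Map2 with 47.6 ± 57.1 and Mapt with 34.1 ± 58.8 followed at a lower level. Neighbours in this order differed by less than the larger of their SDs. Nefl and Nefm, for instance, lay much closer to each other than the neurons of either did among themselves.

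The order of levels differed between the classes in its middle part. In pLSOs, Nefm (477 ± 395) stood in the second place ahead of Nefl (444 ± 442), whereas in LOCs it stood in the sixth place (133 ± 144) behind Nefl (282 ± 291), Map1b (265 ± 222), Stmn2 (203 ± 200) and Prph (153 ± 307). Prph was the fifth in LOCs and the last in pLSOs (0.658 ± 4.11). For 5 of the genes (Nefl, Nefm, Nefh, Map2 and Mapt) the length used in the table was read from the steps of their own values, at 96.4% to 100% whole multiples. For the other 5 it was taken from the row of the gene, so their rescaled levels are less certain.

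**Figure D3:**
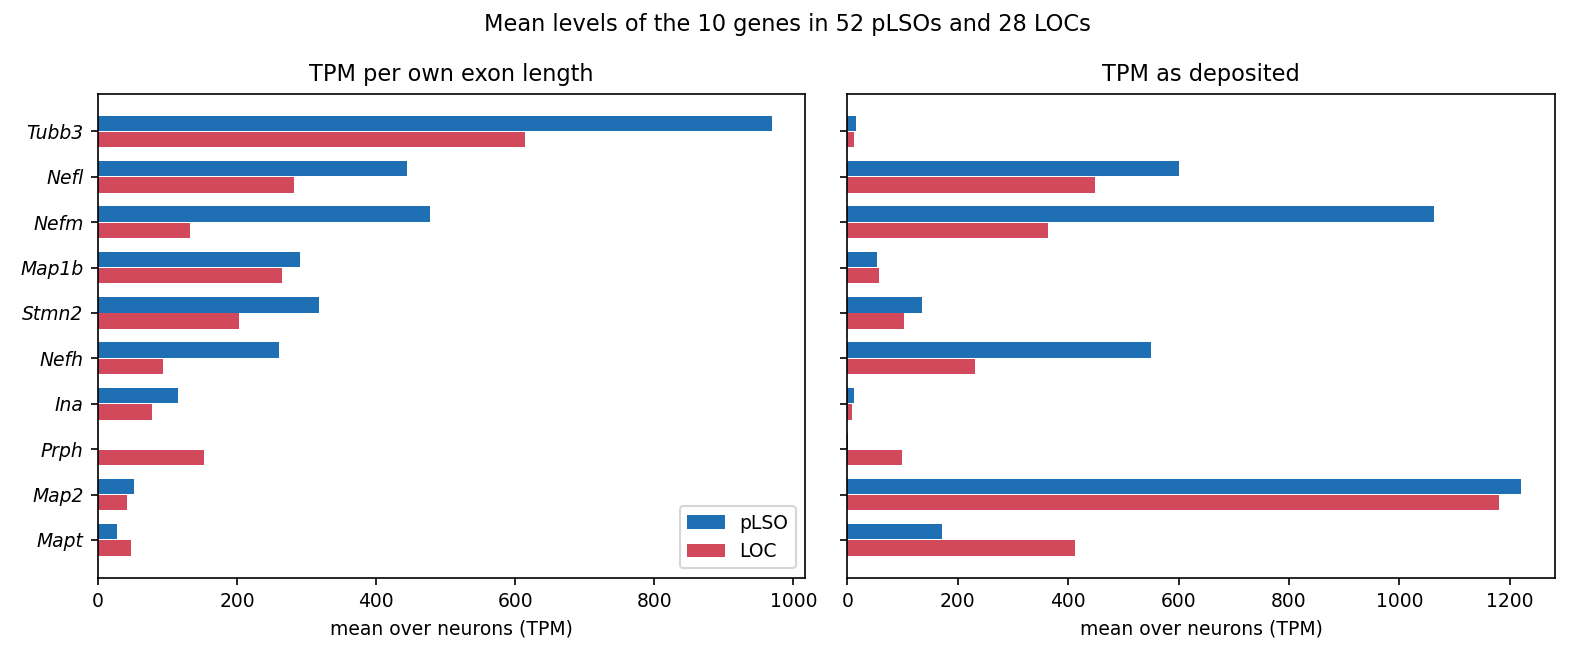
Bars give the mean over 52 pLSOs and 28 LOCs for each gene, in TPM per own exon length (left) and as deposited (right). The left axis puts Tubb3 highest in both classes, with Map2 lowest in LOCs and Prph lowest in pLSOs, whereas the deposited TPM put Map2 highest at 1221 and 1181 and Tubb3 at 15.7 and 12.0.

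The neurofilament triplet of Nefl, Nefm and Nefh was detected together in most neurons of both classes. All 3 were found in 73 of 80 neurons (91.3%, 82.8 to 96.4), namely 48 of 52 pLSOs and 25 of 28 LOCs, and 1 neuron, a pLSO, held fewer than 2 of them. With a detection limit of 10 TPM the shares were 80.8% (67.5 to 90.4) of pLSOs and 71.4% (51.3 to 86.8) of LOCs. All 5 filament genes were detected in 1 pLSO and in 8 LOCs. Of the 10 genes, pLSOs held a median of 8 (5 to 10), LOCs 8 (5 to 10) and negative controls 6 (1 to 7).

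The make-up of the triplet per own length differed in its leading subunit. In pLSOs Nefm held a median of 41.2% of the sum (quartiles 18.5 to 59.3), Nefl 32.3% (14.1 to 53.4) and Nefh 20.8% (6.16 to 32.6). In LOCs Nefl held 51.6% (23.5 to 68.9), Nefm 27.9% (12.9 to 50.8) and Nefh 10.1% (1.13 to 22.4). Nefm was the most abundant of the 3 in 26 of 52 pLSOs and in 9 of 28 LOCs, and Nefl in 19 pLSOs and 15 LOCs. The quartiles of the classes overlapped for each subunit. The lengths cover all annotated exons of a gene (Nefl 3380, Nefm 5782 and Nefh 3994 bases), for Nefm with those of its long transcript. Which subunit leads depends on these lengths, and no other lengths were tried.

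**Figure D4:**
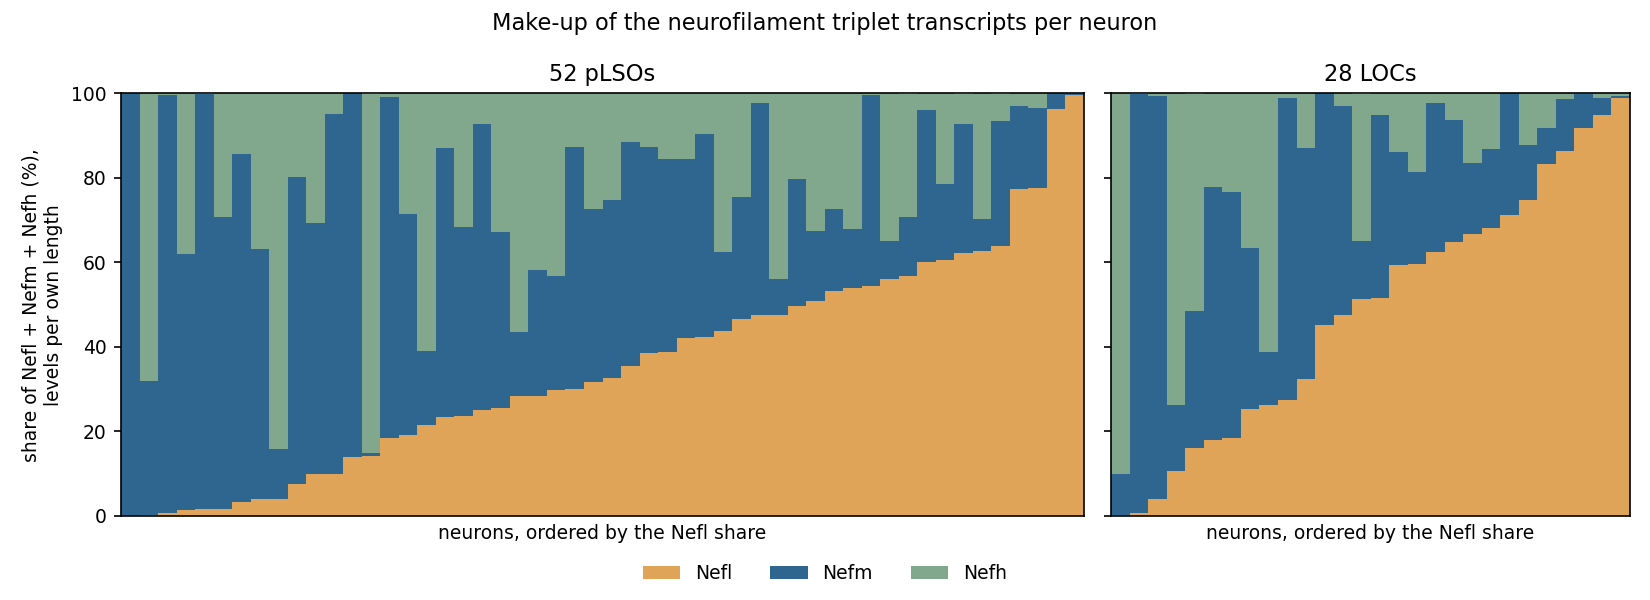
Each column is a neuron and shows how Nefl, Nefm and Nefh, rescaled to own length, divide their sum (in percent), for 52 pLSOs and 28 LOCs ordered by the Nefl share. The make-up ran from neurons almost without Nefl to neurons with almost only Nefl in both classes, with a median Nefl share of 32.3% in pLSOs and 51.6% in LOCs.

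Within the pLSOs, Nefm and Nefh were higher in Onset than in Sustained neurons by mean log2, but not past the threshold by the ratio of mean TPM. Nefm ranged from 2 to 4120 TPM with a median of 1014 in 41 Onset neurons, and from 1 to 1771 TPM with a median of 608 in 11 Sustained neurons. The means were 1168 ± 854 and 670 ± 563 TPM and the difference was 1.66, with the Onset neuron higher in 68.3% of pairs; the log2 ratio of means was 0.80. At 10 TPM or more stood 40 of 41 Onset and 9 of 11 Sustained neurons. Nefh had medians of 373 and 136 TPM, means of 614 ± 652 and 315 ± 366 TPM (log2 ratio 0.97) and a difference of 1.59, whereas Nefl had medians of 512 and 398 TPM and a difference of 0.10. The ranges of Onset and Sustained neurons overlapped for each of the 3.

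By mean log2, Stmn2 was likewise higher in Onset neurons and Mapt was lower. Stmn2 was detected in 40 of 41 Onset neurons (median 141 TPM, highest 332) and in 9 of 11 Sustained neurons (median 86 TPM, highest 490), with a difference of 1.44 and means of 143 ± 101 and 103 ± 137 TPM (log2 ratio 0.47). Mapt was detected in 25 of 41 Onset neurons (61.0%, 44.5 to 75.8) and in 10 of 11 Sustained neurons (90.9%, 58.7 to 99.8). Its medians were 7 and 192 TPM and the difference was −2.25, although the means, 165 ± 327 and 191 ± 157 TPM, lay close together, with single Onset neurons of up to 1560 TPM. By mean log2, 3 of 10 genes were higher in Onset neurons, where 4.92% of 10012 genes were, and 1 was lower, where 10.7% were; in either direction 4 of 10 stood beside 15.6%. By the ratio of mean TPM 1 of the 10, Prph, passed, with means of 0.0244 TPM in Onset and 1.64 TPM in Sustained neurons. These means are near the floor and rest mainly on 1 Sustained neuron at 16 TPM, without which the Sustained mean was 0.2 TPM. The share of all genes by this ratio is not given here.

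Ina, Prph, Map2, Map1b and Tubb3 did not pass the threshold between Onset and Sustained neurons. For Map2 the difference was −0.88, and with all 56 labelled pLSOs it was −1.16, past the threshold. Markers of microglia were also higher in Sustained neurons, 6 of 8 of them, with a summed median of 514 TPM (1 to 5785) beside 53 TPM (0 to 4961) in Onset neurons, and none of the 8 was at 0 throughout either group. In estimated RPM the medians were 1115 and 166. Their part in these differences was not tested. Of the 9 lists of other cytoskeletal genes, motors (1 higher and 6 lower of 20), actin genes (1 and 5 of 10) and initial segment and node genes (1 and 4 of 15) had the most genes lower in Onset neurons, beside 10.7% of all genes. Sustained neurons were few, and the 11 of them allow a share of up to 27.3% for anything seen in none.

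The negative controls held neurofilament transcripts at TPM as high as those of neurons. Nefm was found in 7 of 8 controls at 0 to 7109 TPM (median 1018), beside a median of 569 TPM in 80 neurons. Nefh was found in 5 of 8 controls (median 726 TPM, highest 3859) and Nefl in 5 of 8 (median 365 TPM, highest 5004). These values rested on few reads: Nefm stood for an estimated median of 36 reads in a control and 329 reads in a neuron, since 1 read of Nefm was worth a median of 41.9 TPM in controls and 1.73 TPM in neurons. The differences of neurons minus controls were −0.35 for Nefm (0.33 when rescaled to own length), 0.27 for Nefh and 1.65 for Nefl. The mean TPM of Nefl went the other way, with 547 in neurons and 1096 in controls, a log2 ratio of −1.002. All 3 were detected together in 4 of 8 controls.

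The microtubule genes separated neurons from controls more clearly. Stmn2 was detected in 72 of 80 neurons at a median of 94.5 TPM and in 4 of 8 controls at a median of 1 TPM and up to 86 TPM, a difference of 4.09 with the neuron higher in 86.2% of pairs. Map1b (2.08), Map2 (2.21) and Tubb3 (1.52) were also higher in neurons by mean log2, but the mean TPM of Map2 and of Tubb3 was higher in the controls, at 2363 and 41.1 TPM beside 1207 and 14.4 TPM (log2 ratios of −0.97 and −1.52). Mapt was detected in 57 of 80 neurons and listed at 0 in 8 of 8 controls, which allows a share of up to 37.5%. A read of Mapt was worth a median of 89.8 TPM in controls, above the median of 62 TPM in neurons, so at this depth such a level was not detectable in most controls. Its difference of 4.79 depends on the pseudocount.

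By mean log2, 6 of the 10 genes were higher in neurons, where 30.7% of 9608 genes were, and none was lower, where 1.34% were; in either direction the background was 32.1%. Of 7 tested oligodendrocyte markers 5 were higher in controls and 1 in neurons. Nefm, Nefh, Ina and Prph were the 4 genes under the threshold. By the ratio of mean TPM, 1 of 9 genes (Stmn2) was higher in neurons and 6 were lower, with no ratio for Mapt. The share of all genes by this ratio is not given here, so these counts cannot be read as particular to the 10 genes. Prph was found in 1 of 8 controls, at 2456 TPM and an estimated 74.0 reads, which is above every neuron.

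Other genes of the cytoskeleton and the axon were counted from 9 lists, in which 28 of 109 tested genes (25.7%) passed the threshold between pLSOs and LOCs beside 11.7% of all genes, 19 higher (all genes 6.99%) and 9 lower (4.68%) in pLSOs. By the ratio of mean TPM 17 were higher and 15 lower, where 50.1% of all genes passed in either direction. The excess over all genes was thus not seen by that measure. Scaffold genes of the axon initial segment, the node of Ranvier and spectrin were higher in pLSOs in 5 of 15 cases and lower in none. Nrcam, a nodal adhesion molecule, had 136 TPM in pLSOs and 72.1 TPM in LOCs (means, difference 1.53), and Nfasc, its partner neurofascin, was detected in 31 of 52 pLSOs and 9 of 28 LOCs (1.22). Cntnap1, an axonal protein of the paranodal junction, was detected in 24 of 52 and 7 of 28 (1.35). Sptbn4, the spectrin of initial segments and nodes, was detected in 14 of 52 pLSOs and in 1 of 28 LOCs (1.35), and that LOC raised the LOC mean to 57.5 TPM above the 49.5 TPM of pLSOs.

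Of 7 tested cytolinkers and other intermediate filaments, Plec (plectin, 128 and 16.5 TPM, difference 2.09) and Macf1 (a linker of actin and microtubules, 59.8 and 27.8 TPM, 1.58) were higher and none was lower; the median difference of the list was 0.19. Of 11 tested neurofilament kinases and turnover genes, 4 were higher and none was lower, and the median difference was 0.20. Over all genes tested 6.99% were higher and the median was 0.07. Among them were Mapk8 (the kinase JNK1, 1.92), Trim2 (a ubiquitin ligase that binds Nefl, 1.29) and Capn2 (a calpain protease, 1.15).

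The microtubule lists moved in both directions. Among 20 other microtubule-associated proteins 3 were higher and 2 lower: Mapre2 (1.22) and Map1a (1.21) were among the higher, and Dclk1 (doublecortin-like kinase, 17 of 52 pLSOs and 24 of 28 LOCs, −2.58) and Tppp3 (−1.49) were the lower. Of 12 other tubulins Tubb2a (1.47) and Tuba8 (1.05) were higher. Of 3 other stathmins Stmn3 (1.23) was higher and Stmn1 (−1.06) lower. Of 20 axonal transport motors Dync1h1, the dynein heavy chain (1.26), was higher and the kinesin genes Klc1 (−1.37) and Kif5c (−1.25) were lower.

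Among 11 genes of axon growth 1 was higher and 3 were lower in pLSOs. Sncg, gamma-synuclein, was far lower in pLSOs, with means of 8.60 TPM over all pLSOs and 196 TPM over all LOCs (−3.83), and it was detected in 17 of 52 and 20 of 28 neurons. Dpysl3 (−1.06) was lower and Crmp1 (1.21), of the same family of collapsin response mediators, was higher. Of 10 actin genes 1, Arpc2 (−1.19), was lower. Sncg and Prph were both low in pLSOs, and each was at 0 in part of the LOCs.

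Across neurons the 10 genes were only loosely tied to one another. Over the 45 pairs of genes the median Spearman rho in 80 neurons was 0.07, and 0.02 given the number of detected genes. Within the triplet rho was 0.19 for Nefl and Nefm, 0.30 for Nefl and Nefh and 0.29 for Nefm and Nefh. Within pLSOs these were 0.09, 0.34 and 0.08, and within LOCs 0.23, 0.19 and 0.30. Such weak values in libraries that share depth and processing are given as a description only.

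The genes whose TPM ran most alike with Nefm over 80 neurons, among 1266 genes detected in at least 50% of them, were Spp1 (rho 0.57), the pLSO marker osteopontin, Pvalb (0.49), the calcium buffer parvalbumin, Thy1 (0.46), Fkbp1a (0.46) and Ldhb (0.45). For comparison, 5% of the 1266 genes lay above 0.30 with Nefm. The neurons of both classes entered this ranking, and none was made within a class. With Nefh the highest were Ndufv2 (0.42), Rgs17 (0.40), Pvalb (0.40), Ndufb8 (0.37) and Tagln3 (0.37), and Pvalb was thus shared with Nefm. With Nefl they were Synj1 (0.46), Ndufb4 (0.36), Rpl17 (0.34), Ppp1ca (0.33) and Coa3 (0.33). Nefh itself took the 15th place for Nefl and Nefl the 29th for Nefh.

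The electrophysiological features of the labels ran only weakly with the 10 genes inside a class. Over 90 pairs of a gene and a feature the median size of rho was 0.09 in pLSOs and 0.15 in LOCs, and 3 and 11 pairs reached 0.4 in size. The highest in size among pLSOs was Nefh with the latency of the action potential peak (rho −0.47, 52 neurons), whose latency ran from 1.3 to 23.9 ms. These pLSOs pool Onset and Sustained neurons, which differed in both values. Nefh had medians of 373 and 136 TPM, and the latency had medians of 2.4 and 3.9 ms. No rho was made within either group. In LOCs, Nefm ran with a shorter action potential (half-width, rho −0.48, 28 neurons) and Tubb3 with a lower spike threshold (rho −0.51). Mapt in LOCs ran with rheobase (0.50), the smallest current step that gave a spike. Rheobase in LOCs had a median of 0 pA (0 to 300), so many neurons were tied at 0 and this rho rests on few distinct values. With so many pairs and neurons that share animals the labels do not name, these are descriptions without a test.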

How the data were processed

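Each library is 1 neuron or 1 negative control. Per the labels and the study's methods, the authors made libraries with a modified Smart-seq2 protocol, checked reads with FastQC, trimmed them with Trim Galore (0.4.2), aligned them to mm10 with STAR, marked duplicates with Picard (1.115) and counted primary alignments with featureCounts. The score values deposited by the authors are TPM in whole numbers, with 999773 to 1000026 per library. Whether strand was used was not given in the sources used here.

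Names, positions and exon lengths were taken from Gencode vM21 (GRCm38), in which 37570 of 38887 identifiers have a length. That length covers all annotated exons of a gene together, so levels between genes depend on the transcripts annotated. The length used in the table was recovered from the steps between low values, since a value is a whole number of reads times the worth of 1 read. In rows 1 to 60, 80 to 220 and 240 to 520 the divisors 1, 2 and 3 were used to find that worth, and in the 88 kept libraries all values of up to 40 reads in these rows were whole within rounding to 1 TPM. With that worth, 1068 early rows gave a divisor from their own values, and each row before row 1677 took the median of the nearest of these. From row 1677 on, the exon lengths were sorted from short to long, shortened by 80 bases and assigned by row. Nefl, Nefm, Nefh, Map2 and Mapt kept the divisor read from their own values. Estimated reads and values per own length follow from these divisors and are estimates. They depend on the row rule for Ina, Prph, Map1b, Tubb3 and Stmn2.

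Genes entered a comparison if detected at 1 TPM or more in at least 5% of its libraries. Differences are of mean log2(TPM + 1), with a threshold of 1. Shares carry exact Clopper-Pearson 95% intervals, and 0 of n carries the limit of 3 over n. With no animals named, no test between groups, p-value or standard error was computed, and SDs describe the spread over neurons. The differences and the recovery of reads were tested on simulated data. The genes named are the 10 genes, at most 4 per list past the threshold whose mean in pLSOs or LOCs reached 10 TPM, and the 5 most like Nefl, Nefm and Nefh; some genes that this rule names are not reported here. The 10 genes, the lists and the left-out libraries were chosen with earlier results of these data known. Alternatives were all 96 libraries, pseudocounts of 10 and 0.1, values per own length, detection at 10 TPM, no filter, the log2 ratio of mean TPM (for Onset against Sustained neurons and for neurons against controls chosen after seeing the data), and leaving out libraries of few genes or the highest library of each group. Python 3.11.15, NumPy 2.4.6, pandas 2.3.3, SciPy 1.17.1 and matplotlib 3.10.9 were used.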

Additional observations from a re-analysis of the deposited data

Results flagged for a closer look

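In the 8 negative controls, 6 of 9 genes with a value above 0 had 1 library that stood apart by Dixon's ratio (critical value 0.526 for 8 libraries). That critical value assumes normal values of equal precision, whereas 1 read of Nefl was worth 11.6 to 900 TPM in these controls. A single detection among zeros also passes it by construction. The count is therefore a description and cannot be set against chance. Prph was at 2456 TPM in 1 control and at 0 in the other 7. Tubb3 was at 327 TPM in 1 control, with the next at 2 TPM, and Ina was at 522 TPM, with the next at 7 TPM. Stmn2 reached 86 TPM beside 19 TPM, Map1b 123 TPM beside 49 TPM and Nefl 5004 TPM beside 2036 TPM.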

How the results depend on the processing

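Under the alternatives other than the ratio of mean TPM, no comparison changed its count of genes past the threshold by more than 1.5 times and no gene past it turned its sign. By the log2 ratio of mean TPM, 1 gene instead of 4 passed between Onset and Sustained neurons, and between neurons and controls Nefl (−1.002), Map2 (−0.97) and Tubb3 (−1.52) turned their sign. For these comparisons that alternative was chosen after seeing the data, and its share of all genes is not given here. Without it, between pLSOs and LOCs the count lay between 3 (pseudocount of 10) and 5 (pseudocount of 0.1, or own length), between Onset and Sustained neurons between 3 and 5, and between neurons and negative controls between 4 and 7. The share of all genes past the threshold between pLSOs and LOCs moved as well. It was 3.73% with a pseudocount of 10, 24.1% with 0.1 and 16.7% per own length. With all 96 libraries as labelled the counts were 4, 5 and 6, beside 4, 4 and 6. The left-out cell_36 held 35751 TPM of Nefl. Nefm and Nefh remained higher and Prph lower in pLSOs in every alternative, while Mapt fell under the threshold with a pseudocount of 10 (−0.97) and per own length (−0.96). By the ratio of mean TPM, 17 listed genes were higher and 15 lower, instead of 19 and 9. The share of all genes past the threshold was then 50.1% instead of 11.7%. The cause was not tested.

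Between neurons and controls, the median difference of all genes moved from 0.57 to 0.84 per own length, 0.21 with a pseudocount of 10 and 1.04 with 0.1. Between Onset and Sustained neurons it moved from −0.07 to −0.19 with a pseudocount of 0.1 and to 0.10 without the highest neuron. Nefh in neurons minus controls was −0.48 with a pseudocount of 10. The precision is limited by the missing animals, the 11 Sustained neurons and the low depth of the controls. No paired analysis was possible because each library is a single cell and the labels share no replicate numbers between groups.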
